A study of Sus scrofa with 12 samples.

Results

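INSL3, LHCGR, RXFP1 and RXFP2 are a hormone of the testis and receptors of the pathways around it, and they were followed here across breed and age in pig testis. They were taken as the genes of the deposited coding table that carry these symbols, which gave 4 of 21674 genes. The series holds 12 RNA libraries of testis, 3 in each of 4 groups. Ha were Hezuo boars aged 30 days, Hb were Hezuo boars aged 120 days, La were Landrace boars aged 30 days and Lb were Landrace boars aged 120 days. The labels do not say whether each library came from a single boar, which is taken from the study's methods. The estimated counts of a library summed to between 17165519 (Hb3) and 23758931 (Ha1).

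Leydig cells lie between the seminiferous tubules and make testosterone when luteinizing hormone binds LHCGR, a receptor that signals through cAMP. They also secrete INSL3, a peptide of the relaxin family that is known for its part in the descent of the testis and is used as a marker of Leydig cell capacity. RXFP2 is the receptor of INSL3, and RXFP1 is the receptor of relaxin. Both belong, with LHCGR, to the G protein-coupled receptors that carry leucine-rich repeats.

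Before the results, 2 libraries of the Hb group have to be named, since they stood apart from the third in Leydig cell genes and in some collagens. CYP17A1, an enzyme of androgen synthesis, had an FPKM (a level per transcript length) of 468 in Hb1, 7.92 in Hb2 and 6.63 in Hb3. STAR, which brings cholesterol into mitochondria, had an FPKM of 28.2 in Hb1, 1.72 in Hb2 and 1.83 in Hb3. CYP11A1, which cleaves the cholesterol side chain, had an FPKM of 69.7, 9.46 and 6.33 in the same order. Among stromal markers COL3A1 had an FPKM of 28.3 in Hb1, 6.05 in Hb2 and 4.23 in Hb3, and COL1A2 of 13.1, 2.93 and 2.80, while ACTA2 had 27.8, 48.2 and 34.3. The split was not seen in every Leydig cell gene. HSD3B1 had an FPKM of 9.58, 7.41 and 9.85 in Hb1, Hb2 and Hb3, and HSD17B3 of 43.5, 74.1 and 74.7. The log2 fold changes and interactions of the members that rest on Hb are therefore given with and without Hb2 and Hb3. This choice was made after the data were seen. Calls of other single genes named below that were lost without Hb2 and Hb3 are given likewise. Without them the lone Hb1 is assumed to vary like the other groups.

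**Figure D1:**
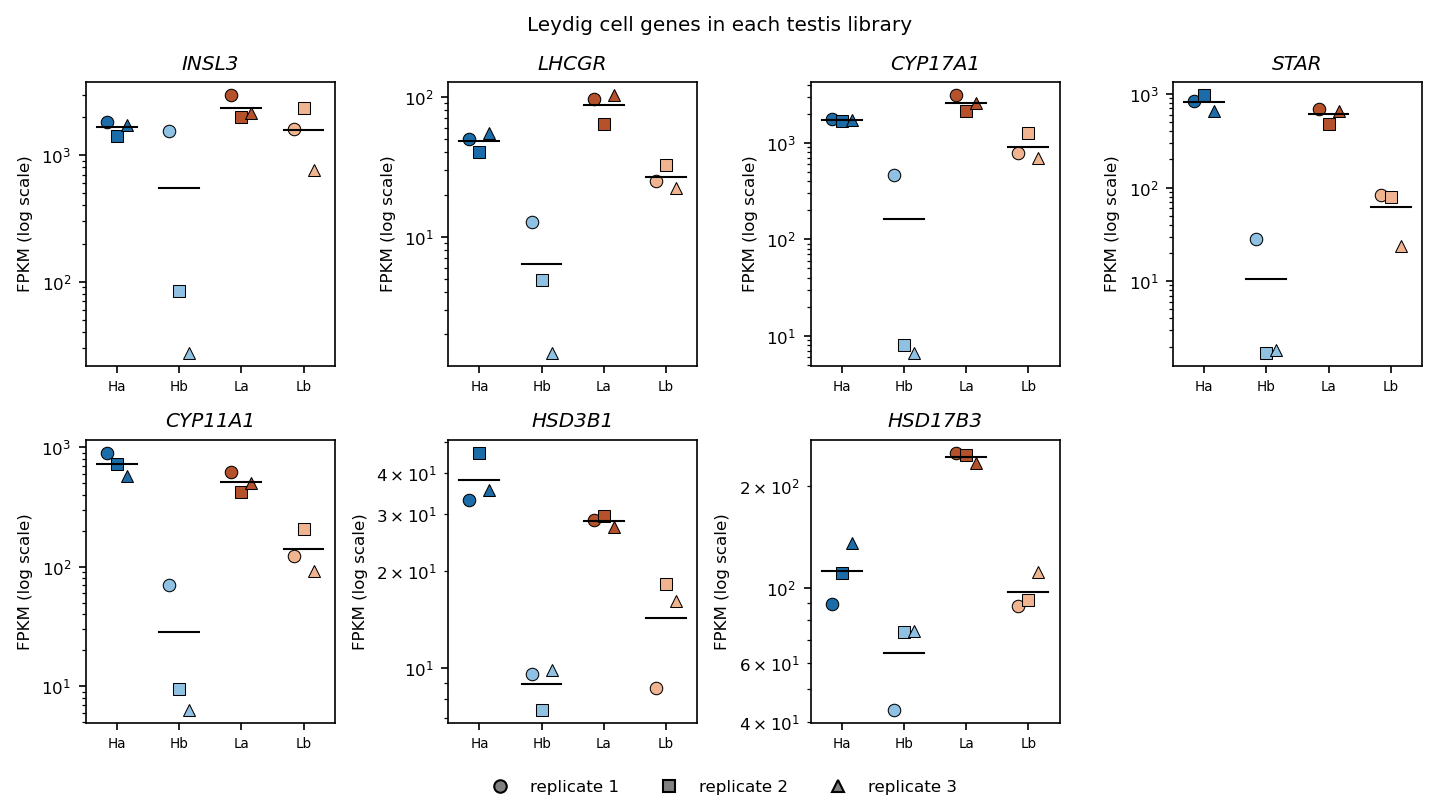
FPKM of the 7 Leydig cell marker genes in each testis library, on log axes, with 3 libraries in each of Ha, Hb, La and Lb; points are libraries, marker shapes give the replicate number and black lines are group means. CYP17A1 lay at 468 in Hb1 and at 7.92 and 6.63 in Hb2 and Hb3, while HSD17B3 lay between 43.5 and 74.7 in these libraries.

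INSL3 was among the most abundant coding transcripts in 10 of the 12 libraries. By FPKM it ranked between 6 (Lb2) and 21 (Lb3) in the libraries other than Hb2 and Hb3, where it ranked 574 and 2147. In CPM, counts scaled by TMM to the depth of each of the 12 libraries, INSL3 was at 1624, 1274 and 1544 in Ha and at 2058, 96.9 and 34.6 in Hb. It was at 2746, 1824 and 1994 in La and at 1842, 2727 and 784 in Lb. The Hb group thus held a library above every Ha library and 2 libraries far below all others, and Lb overlapped both La and Ha. La lay above Ha in all 6 libraries.

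The group means of INSL3 fell in the order La (2188 ± 490 CPM, SD, n = 3), Lb (1784 ± 973), Ha (1481 ± 183) and Hb (730 ± 1150), and neighbours in this order overlapped. A gene was called at a log2 fold change beyond 1 in either direction and an adjusted p below 0.05, from edgeR's quasi-likelihood test with the Benjamini-Hochberg correction over all tested genes. INSL3 was not called in any comparison. The log2 fold change was -0.99 ± 1.26 (SE) from Ha to Hb, with an adjusted p of 0.504 in edgeR, and -0.26 ± 0.38 from La to Lb, with an adjusted p of 0.549. The latter was -0.70 without Lb2 and turned in sign without Lb3 (0.0919), and it was -0.0704 without La1. From Ha to La it was 0.55 ± 0.17, with an adjusted p of 0.0504 in edgeR. From Hb to Lb it was 1.35 ± 1.26, with an adjusted p of 0.527.

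The change of INSL3 with age in Hezuo boars depended on which Hb libraries entered. With Hb1 alone in its group the log2 fold change from Ha to Hb was 0.49, opposite in sign, with an adjusted p of 0.0482 in edgeR, and that from Hb to Lb was -0.13. Without Hb1 the change from Ha to Hb was -4.47, with an adjusted p of 0.000368, and the interaction of breed and age was then 4.21, with an adjusted p of 0.00637. From Hb to Lb it was 4.77 without Hb1, with an adjusted p of 0.0179. Tested with limma on log2 FPKM with 0.1 added, the change from Ha to Hb was -3.43. Its adjusted p was 0.0415 in limma, and it passed the thresholds. That value is a difference of mean log2 values. The edgeR value compares fitted mean levels instead, which in Hb rest mostly on Hb1. With all libraries the interaction was 0.73 ± 1.46, with an adjusted p of 0.807 in edgeR. The cause of the low values in Hb2 and Hb3 was not tested. In whole testis, fewer Leydig cells and less RNA in each cell cannot be told apart.

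LHCGR was lower at 120 days than at 30 days in both breeds. It was at 165, 134 and 184 CPM in Ha, at 60.8, 21.7 and 6.81 in Hb, at 339, 228 and 361 in La, and at 109, 134 and 89.8 in Lb. Each older group lay below the younger group of its breed, with no overlap. Among the Hb libraries Hb3 was lowest and Hb1 highest, as for INSL3, but Hb1 was below every Lb library.

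LHCGR fell from Ha to Hb with a log2 fold change of -2.41 ± 0.68 (SE; edgeR adjusted p of 0.0148) and from La to Lb with -1.45 ± 0.20 (edgeR adjusted p of 0.000271). The change from Ha to Hb was -1.39 without Hb2 and Hb3, with an adjusted p of 0.00446 in edgeR. The interaction was 0.95 ± 0.74, with an adjusted p of 0.469 in edgeR. With all libraries, a difference between the breeds in this fall was thus not shown. The interaction was -0.0750 without Hb2 and Hb3, and leaving out single libraries moved it as well. The mean was 310 ± 71.4 CPM (SD, n = 3) in La and 161 ± 25.1 in Ha, and the ranges did not overlap. This difference, 0.93 ± 0.18 on the log2 scale with an adjusted p of 0.0117 in edgeR, stayed under the fold threshold. It passed without Ha3 (1.03) or without La2 (1.13).

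Between the 120-day groups LHCGR was higher in all 3 Lb libraries than in any Hb library. The log2 fold change from Hb to Lb was 1.95 ± 0.64, with an adjusted p of 0.110 in edgeR, and was not called. It was called without Hb1 (2.96, adjusted p of 0.0258 in edgeR), and was 0.94 without Hb2 and Hb3, with an adjusted p of 0.0922. It was also called when all 12 libraries entered the same fit (1.89, adjusted p of 0.0363). Permuting 3 libraries against 3 can reach no p below 0.1, whereas the p values of edgeR rest on a fitted model. The boars, not cells, were the replicates.

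RXFP1, the relaxin receptor, was near the limit of detection at 120 days. It had estimated counts of 20, 27 and 28 in Ha and 1, 5 and 1 in Hb. In La it had 70, 31 and 92 counts, and in Lb 11, 0 and 5. Each library at 30 days held more counts than any at 120 days, and La exceeded Ha. A count of 3 corresponds to between 0.115 and 0.196 CPM in these libraries, which is the level that a count of 0 allows, for counting error only.

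RXFP1 fell from Ha to Hb with a log2 fold change of -2.91 ± 0.60 (SE; edgeR adjusted p of 0.0037) and from La to Lb with -3.37 ± 0.79 (edgeR adjusted p of 0.00478). The change from Ha to Hb was -3.97 without Hb2 and Hb3, with an adjusted p of 0.0169. In limma on log2 FPKM with 1 added, which shrinks low values, these changes were -0.32 and -0.71 and missed the fold threshold. It was higher in La than in Ha, at 1.48 ± 0.38 with an adjusted p of 0.0295. That call was lost without Ha1, Ha2, La1 or La3, with values between 1.22 and 1.56 and adjusted p between 0.0717 and 0.107 in edgeR. It was also lost with all 12 libraries in the same fit (adjusted p of 0.204). From Hb to Lb the gene did not pass the filter on low counts, and with no filter its log2 fold change was 1.04, with an adjusted p of 0.636 in edgeR. Without Hb2 and Hb3 it was 2.11.

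RXFP2, the receptor of INSL3, was low in all 12 libraries and showed no called difference. Its estimated counts were 18, 31 and 51 in Ha, 69, 19 and 27 in Hb, 43, 47 and 44 in La, and 36, 79 and 21 in Lb. The ranges of all 4 groups overlapped, and no library was at 0. Its FPKM lay between 0.17 and 0.73, against an INSL3 FPKM of 27.5 to 2961. The log2 fold change was 0.76 ± 0.64 from Ha to Hb and 0.14 ± 0.46 from La to Lb, with adjusted p of 0.319 and 0.801 in edgeR. From Ha to La it was 0.59 ± 0.40 and from Hb to Lb 0.02 ± 0.65, with adjusted p of 0.327 and 0.989. The sign from La to Lb turned under other scalings, such as total counts (-0.05), and that from Hb to Lb without Hb2 and Hb3 (-0.81). Without these libraries the change from Ha to Hb was 1.60, with an adjusted p of 0.0744, and was not called. The interaction was -0.48 ± 1.26 for RXFP1 and -0.63 ± 0.84 for RXFP2, with adjusted p of 0.860 and 0.694, and for RXFP2 it was -1.48 without Hb2 and Hb3 (adjusted p of 0.295).

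**Figure D2:**
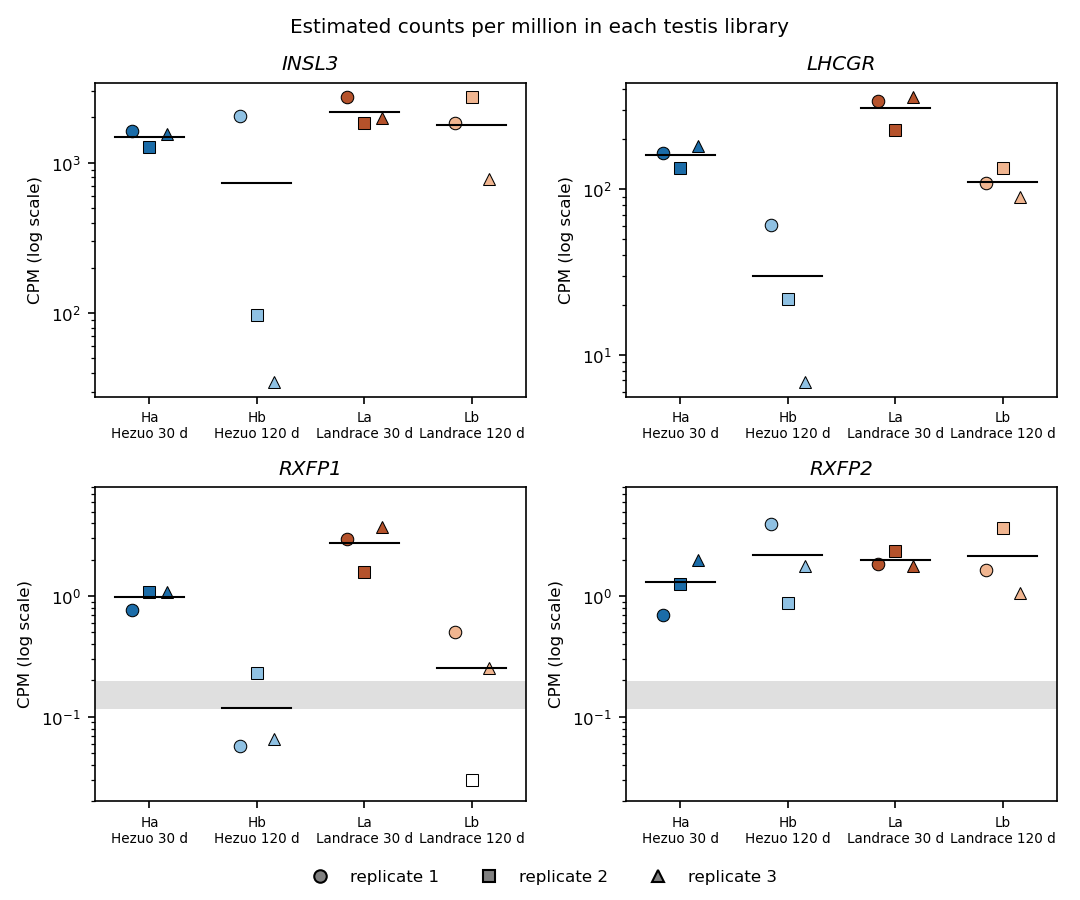
CPM of INSL3, LHCGR, RXFP1 and RXFP2 in each testis library, on log axes, with 3 libraries in each of Ha, Hb, La and Lb; points are libraries, marker shapes give the replicate number, black lines are group means and the grey band is the CPM of 3 counts. The open square in the RXFP1 panel is Lb2, with 0 counts, drawn at the foot of the axis. INSL3 spread from 34.6 to 2058 CPM within Hb, and RXFP1 fell to counts of 1 and 0 at 120 days.

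Over the members, 2 of 4 were called lower from Ha to Hb, where 23.2% of the 16548 tested genes were called lower and 28.2% higher. From La to Lb 2 of 4 were called lower, where 20.1% of 16637 tested genes were called lower and 27.5% higher. From Ha to La 1 of 4 was called higher, where 3.60% of 15648 tested genes were called higher and 4.01% lower. From Hb to Lb 0 of 3 tested members were called by edgeR, where 2.65% of 16311 genes were called higher and 1.20% lower. DESeq2 called 0 as well, and LHCGR was the only member there with an unadjusted p under 0.05 in edgeR. The interaction was called for 0 of 4 members by edgeR, against 5.14% of 17332 genes, and 0 had an unadjusted p under 0.05. With total counts in place of TMM the genes called higher from Ha to Hb made up 44.1% of all calls, against 54.8%, and the median log2 fold change of all tested genes was -0.32, against -0.02. The comparisons share groups and are not independent of each other.

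The ratio of INSL3 to CYP17A1, taken on FPKM within a library, differed between the ages. It was 1.03, 0.833 and 1.0 in Ha and 3.31, 10.6 and 4.14 in Hb. It was 0.950, 0.933 and 0.836 in La and 2.03, 1.84 and 1.10 in Lb. Every library at 120 days lay above every library at 30 days of the same breed. In an exact permutation test, two-sided, of age within breed over 400 arrangements, the mean difference on the log2 scale was 1.64, with p = 0.005 and an adjusted p of 0.02 over 8 tests. A p of 0.005 is the smallest these arrangements can give. The difference by age was 1.31 without Hb2 and Hb3, and without La3 (1.62) its adjusted p was 0.06. At 120 days every Hb value of the ratio lay above every Lb value, while Ha and La overlapped. Permuting breed within age gave -0.89 (Landrace less Hezuo), with p = 0.03 and an adjusted p of 0.08 in the exact test.

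Other ratios of the members gave a mixed picture. INSL3 over LHCGR spanned 17.2 (Hb2) to 121.8 (Hb1) on FPKM, and its mean log2 difference by age was 0.48, with an adjusted p of 0.493 in the exact permutation test. It was 1.41 without Hb2 and Hb3, with an adjusted p of 0.0333. LHCGR was between 2.37% and 3.95% of CYP17A1 in FPKM in 10 libraries, and 61.6% in Hb2 and 22.3% in Hb3. RXFP2 over RXFP1 was higher at 120 days by 3.36 on the log2 scale, with an adjusted p of 0.02 in the exact permutation test, and 0.06 without La3 (3.18). Its denominator rested on counts of 11 or fewer at that age. RXFP1 was at 0 in Lb2, so that the ratio there was set by the pseudocount, and without Lb2 the difference was 2.60, with an adjusted p of 0.04.

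Of the other genes with the relaxin name, INSL6, a relative of INSL3 that is made in male germ cells, had an FPKM of 0.13 to 0.47 at 30 days. At 120 days INSL6 had an FPKM of 37.0 to 52.8, and was called in both breeds, with log2 fold changes of 7.45 ± 0.31 (7.68 without Hb2 and Hb3) and 7.83 ± 0.32. RLN3 had an FPKM of 0.60 to 2.85 over the 12 libraries, and was called higher at 120 days in both breeds. The call from Ha to Hb was lost without Hb2 and Hb3 (0.87, adjusted p of 0.143 in edgeR). RXFP3 reached at most 0.3, RLN2 at most 1.03, and INSL5 and RXFP4 at most 0.16 and 0.03. Of 11 listed genes of the family, 9 were in the table. The 6 tested include the members INSL3, RXFP1 and RXFP2. From Ha to Hb 2 were called higher and 1 lower (RXFP1), and from La to Lb 2 higher and 2 lower (RXFP1 and RXFP3). Over all tested genes 28.2% were called higher and 23.2% lower from Ha to Hb, and 27.5% and 20.1% from La to Lb. Without Hb2 and Hb3, 1 of 7 was called higher and 1 lower from Ha to Hb.

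The leucine-rich repeat receptors, 8 listed and 8 tested with age, include the members LHCGR, RXFP1 and RXFP2. From Ha to Hb 3 were called lower, among them LHCGR and RXFP1, and 1 higher. From La to Lb 4 were called lower, among them the same members, and 1 higher. The shares called lower over all tested genes were 23.2% from Ha to Hb and 20.1% from La to Lb, and those called higher 28.2% and 27.5%. Their median log2 fold change was -0.89 and -0.84, against -0.02 and 0.01 over all tested genes, and -1.28 from Ha to Hb without Hb2 and Hb3. FSHR, the receptor for follicle-stimulating hormone on Sertoli cells, was at an FPKM of 12.1, 14.4 and 18.9 in Ha, and at 30.6, 33.8 and 37.6 in La. FSHR was called higher in La (1.22 ± 0.15, adjusted p of 0.00246 in edgeR), and lower from La to Lb (-1.17 ± 0.16). From Ha to Hb it was not called (-0.16 ± 0.31, adjusted p of 0.665), with 5.14, 13.2 and 10.1 in Hb, and was -0.96 without Hb2 and Hb3, with an adjusted p of 0.0330. LGR5 was at 0.78 to 2.35 in Ha and 4.10 to 5.68 in La, and did not exceed 0.08 at 120 days. LGR4, at an FPKM of 5.54 to 22.0, and LGR6, at 0.47 to 2.13, were not called, but from Ha to Hb they were without Hb2 and Hb3 (-1.25 and -1.30).

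Of 26 genes of the cAMP signal that acts below LHCGR, 11 were called lower and 4 higher from Ha to Hb, and 7 lower and 5 higher from La to Lb. Of all tested genes 23.2% were called lower and 28.2% higher from Ha to Hb, and 20.1% and 27.5% from La to Lb. The median log2 fold change of the list was -0.78 and -0.37, against -0.02 and 0.01 over all tested genes. With Hb1 alone in its group, 9 were called lower and 5 higher from Ha to Hb. CREM, a transcription factor with a known role in the development of spermatids, rose by 3.38 ± 0.16 in Hezuo (3.59 without Hb2 and Hb3) and 3.28 ± 0.13 in Landrace. PRKAR2A and PDE4A were also called higher with age in both breeds, from an FPKM of 9.77 to 13.7 to one of 46.8 to 101, and from 1.43 to 2.53 to 15.9 to 28.9. ARRB1 and ADCY6 were called lower in both, from 6.19 to 7.34 to 1.09 to 2.38, and from 13.4 to 18.9 to 2.37 to 5.77. PRKAR2B, a regulatory subunit of protein kinase A, was called lower in both breeds, at -2.02 ± 0.25 (-1.55 without Hb2 and Hb3) and -2.36 ± 0.15. ADCY3, at an FPKM of 0.82 to 1.97 in Ha and 0.37 to 0.54 in La, was called lower in La (-1.71 ± 0.34), and its call from Ha to Hb (-1.88 ± 0.38) was lost without Hb2 and Hb3 (-1.61, adjusted p of 0.0665). ADCY7, an adenylyl cyclase, had an FPKM of 0.15 to 0.24 in Hb and of 0.42 to 0.79 in Lb. It was called higher in Lb (1.65 ± 0.36, adjusted p of 0.0432 in edgeR), and not so without Hb2 and Hb3 (1.80, adjusted p of 0.101).

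Of 9 factors that act on Leydig cell genes, 6 were called lower and 1 higher from Ha to Hb, and 4 lower and 1 higher from La to Lb. The shares called lower over all tested genes were 23.2% and 20.1%, and those called higher 28.2% and 27.5%. The median log2 fold change of the factors was -1.45 and -0.93, against -0.02 and 0.01. With Hb1 alone in its group, 5 were called lower and 1 higher from Ha to Hb. NR5A1, a nuclear receptor of steroid-making cells, was at an FPKM of 55.5 to 61.5 in Ha and 7.55 to 12.1 in Hb. It was at 57.4 to 63.3 in La and 16.8 to 21.5 in Lb, and was called lower with age in both breeds, at -2.09 ± 0.21 (-1.69 without Hb2 and Hb3) and -1.38 ± 0.13. GATA4 and JUN were called lower as well, at -2.19 ± 0.18 and -2.25 ± 0.22 from Ha to Hb and -1.48 ± 0.16 and -1.58 ± 0.17 from La to Lb. NR4A1, a rapidly induced nuclear receptor, varied among the 30-day libraries, with an FPKM of 5.92, 24.3 and 3.83 in Ha and 13.0, 44.9 and 35.7 in La. It was called lower from Ha to Hb (-2.19 ± 0.69) and higher from Hb to Lb (1.54 ± 0.29). Neither call held without Hb2 and Hb3 (-1.76 and 1.13). From La to Lb, which holds no Hb library, NR4A1 was called lower as well (-2.18 ± 0.42, adjusted p of 0.00166 in edgeR). MEF2A was called higher from Ha to Hb (1.16 ± 0.29, and 1.29 without Hb2 and Hb3). From La to Lb it was not called (0.31 ± 0.25, adjusted p of 0.283 in edgeR).

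In the KEGG relaxin signaling pathway, 130 genes carried the annotation. From Ha to Hb 51 of 118 tested genes were called lower and 13 higher, and from La to Lb 39 of 121 were called lower and 16 higher. Beside these stand 23.2% lower and 28.2% higher over all tested genes from Ha to Hb, and 20.1% and 27.5% from La to Lb. The median log2 fold change of the pathway was -0.88 and -0.62, against -0.02 and 0.01. From Ha to Hb, 50 of 121 were called lower and 15 higher without Hb2 and Hb3. Of 16 genes of the pathway called between breeds, the 4 with the smallest adjusted p were COL1A1, COL4A1, COL4A2 and ACTA2, and other collagen genes were not examined as a list. COL1A1 had an FPKM of 0.90, 0.52 and 0.60 in Hb and 17.8, 16.5 and 16.5 in Lb, and was called higher in Lb with 4.53 ± 0.26. COL4A1 and COL4A2 were called likewise, with 2.85 ± 0.24 and 2.72 ± 0.28. From Hb to Lb 12 of 116 genes were called higher, where 2.65% of all tested genes were (432). Without Hb2 and Hb3 it was 9 of 121, where 202 genes in all were called higher, and COL1A1 had 4.07. With age PRKCZ was called higher in both breeds, at 4.16 ± 0.14 and 3.77 ± 0.16, as was SHC4, at 3.21 ± 0.43 and 3.62 ± 0.17. GNG3 had an FPKM of at most 0.14 at 30 days, with counts of 0, 1 and 0 in La, and of 3.74 to 10.3 at 120 days. MMP2 was called lower with age in both, at -3.28 ± 0.26 and -2.67 ± 0.14, and its call from Hb to Lb (1.01 ± 0.22) was lost without Hb2 and Hb3 (0.73, adjusted p of 0.126).

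Markers of other cell types were summed to describe the tissue. The summed FPKM of 10 spermatid markers was 4.53 to 10.8 at 30 days and 3342 to 7667 at 120 days, where PRM1 was the most abundant. Within Hb it was 5280, 5793 and 7667 in Hb1, Hb2 and Hb3. The 8 Sertoli cell markers summed to 181, 288 and 216 in these libraries and to 311, 385 and 371 in Lb, with CLDN11 the most abundant in each. The 7 Leydig cell markers summed to 2180, 189 and 128 in Hb, against 1712 to 4057 in Lb. INSL3 was the most abundant of them in these libraries other than Hb3, where HSD17B3 was. No Leydig cell marker was at 0 in any library. Of the 3 adrenal-like markers 2 were in the table, led by MRAP, and MC2R did not exceed 0.11.

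The 10 peritubular and stromal markers summed to 102, 101 and 66.5 in Hb and to 530, 516 and 562 in Lb, with COL3A1 the most abundant in Hb1, Lb1 and Lb2 and ACTA2 in Hb2, Hb3 and Lb3. From Hb to Lb 5 of the 10 were called higher, where 432 of all 16311 tested genes were (2.65%). Without Hb2 and Hb3 the count was again 5, where 202 genes in all were called higher. Endothelial markers, 5 genes led by VWF, summed to 13.9, 26.7 and 15.7 in Hb, against 28.2 to 45.7 in Lb. The 5 macrophage markers, with CSF1R the most abundant but for CD163 in Hb3, summed to 3.49, 4.56 and 2.24 in Hb and to 5.91 to 9.91 in Lb. In the endothelial and the macrophage list 1 of 5 was called higher from Hb to Lb, and none without Hb2 and Hb3, where calls over all genes were also fewer. The medians of these lists were 0.83 and 1.22 with all libraries and 0.88 and 1.19 without Hb2 and Hb3. Spermatocyte markers, 8 genes led by PIWIL1, summed to 134 to 157 in Hb and 110 to 124 in Lb, and 11 spermatogonia markers to 173 to 182 and 140 to 162. DDX4 made up 134 to 146 of the spermatogonia sum in Hb and 96.8 to 116 in Lb, and the median log2 fold change of the 10 tested genes of this list from Hb to Lb was 0.18. It was 0.68 without Hb2 and Hb3.

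Somatic lists other than that of Leydig cells also held genes called lower with age. From Ha to Hb 8 of 10 peritubular and stromal markers were called lower, 5 of 5 endothelial, 5 of 5 macrophage and 4 of 8 Sertoli cell markers, where 23.2% of all tested genes were. From La to Lb it was 5 of 10, with 1 called higher (ACTA2), 3 of 5, 4 of 5 and 4 of 8, where 20.1% of all were. The median log2 fold changes were -2.83, -2.31, -3.01 and -1.12 from Ha to Hb, and -1.14, -1.25, -1.80 and -0.97 from La to Lb. Those of the Leydig cell markers, a list that holds INSL3 and LHCGR, were -2.41 and -1.19. The value of -2.41 is that of LHCGR itself. Without Hb2 and Hb3 the medians from Ha to Hb were -2.37, -2.25, -3.00 and -1.15. For Leydig cell markers it was -1.39, again the value of LHCGR itself. The fall of LHCGR thus came with falls in markers of other somatic cells, and the part of these lists in the values of INSL3 and LHCGR was not tested.

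The genes most like each member over the 12 libraries were ranked by Pearson's r on log2 CPM among genes with a symbol, as a description. The libraries share age and breed, so a common change with age raises r. For INSL3 they were MAN1C1 (0.977), SULT2A1 (0.970) and RDH12 (0.963). They were 0.735, 0.731 and 0.620 without Hb2 and Hb3, so the likeness rested in part on these libraries. For LHCGR they were GNG2 (0.984), PLD4 (0.984) and PLPP2 (0.983), and 0.954, 0.942 and 0.926 without the same libraries. For RXFP1 they were ROR1 (0.966), NUDCD1 (0.964) and FAM160B1 (0.964), and 0.963, 0.960 and 0.943 without La3 and Lb2. RXFP1 held 0 to 11 counts at 120 days, so its r rests largely on age. For RXFP2 they were MYO1H (0.888), DGCR6L (0.877) and POMGNT1 (0.860), and 0.763, 0.907 and 0.774 without Ha1 and Hb1. On log2 FPKM with 0.1 added those of RXFP2 were 0.844, 0.596 and 0.585. MYO1H itself had counts of 5 to 30. Ranked on log2 FPKM with 0.1 added, 3 of 3 genes were shared for INSL3, 1 of 3 for LHCGR and for RXFP2 and 0 of 3 for RXFP1.

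On Sscrofa11.1, INSL3 lies on chromosome 2 from 59929591 to 59931220, between JAK3 and B3GNT3, at 3087 and 3728 bases. JAK3 and B3GNT3 were both called lower at 120 days in each breed, whereas INSL3 was not. From Ha to Hb they were at -2.13 ± 0.38 and -3.17 ± 0.33, and at -1.42 and -3.68 without Hb2 and Hb3. LHCGR lies on chromosome 3 from 91964415 to 92023821, between FSHR and STON1, and overlaps GTF2A1L. GTF2A1L, a germ cell factor of transcription, rose from an FPKM of 0.66 to 0.83 at 30 days to 18.7 to 28.2 at 120 days, while LHCGR fell. The libraries were strand-specific, but the strands of LHCGR and GTF2A1L were not known here. Reads from the shared stretch could have been counted for either gene if both lie on the same strand or counting ignored strand. Their share was not tested. RXFP1 lies on chromosome 8 from 47473465 to 47603332, 1424 bases from C8H4orf46, with TMEM144 on its other side. RXFP2 lies on chromosome 11 from 8266898 to 8321021, between B3GLCT and FRY. Within 10 kb of the members 0 of the 9282 known and 0 of the 1424 assembled lncRNAs were found.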

How the data were processed

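Total RNA of 12 testes was depleted of ribosomal RNA and sequenced by the authors in strand-specific libraries. Per their processing notes, reads were filtered with fastp 0.18.0, ribosomal reads were removed with Bowtie2 2.2.8, the rest were mapped with HISAT2 2.1.0 and transcripts were assembled with StringTie 1.3.4. For every coding gene the deposited table lists an estimated count per library, and beside it FPKM by the authors. The tool behind the estimated counts is not given in the sources used here, and 31.6% of the deposited estimated counts were not whole. FPKM values were scaled by the authors for length and mapped fragments. Exon positions of assembled lncRNAs were also deposited.

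Estimated counts were rounded. After filterByExpr at a minimum count of 10 and TMM scaling, edgeR 4.0.16 (R 4.3.3) fitted quasi-likelihood models to the 6 libraries of each of 4 comparisons and to 12 for the interaction. Fold changes are the second group over the first, and the SE is the absolute log2 fold change over the square root of F. Ratios were taken on FPKM with a pseudocount of 0.01. Alternatives were DESeq2 1.42.0, limma 3.58.1 on log2 FPKM, other filters and scalings, all libraries in one fit, and leaving out libraries. The scripts were tested on simulated data. Further work used pandas 2.3.3, scipy 1.17.1, numpy 2.4.6 and matplotlib 3.10.9 under Python 3.11.15. Values are rounded to 3 significant digits, log2 values to 2 decimals.

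The genes named are the 4 members, the 3 genes most like each, their neighbours, and genes of 5 lists: relaxin family and leucine-rich repeat receptors in full, and from cAMP signal, Leydig factors and KEGG relaxin signaling the 2 smallest adjusted p in each direction with age plus up to 4 genes called between breeds. Markers of 9 cell types were summed. Members and lists were chosen with earlier results of these data known.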

Additional observations from a re-analysis of the deposited data

Results flagged for a closer look

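Among 55 named genes with an edgeR test of the interaction, 6 were called, against 5.14% of all 17332 tested genes. Each of the 6 was also among the genes named because they were called between breeds at an age, so the share cannot be set against that of all genes. The values are the Landrace change less the Hezuo change on the log2 scale. For COL1A1 it was 4.02 (adjusted p of 0.000372 in edgeR), for COL4A1 2.77, for COL4A2 2.52 and for ACTA2 2.54. ACTA2, an actin of peritubular muscle cells, fell with age in Hezuo (-1.14 ± 0.17) and rose in Landrace (1.42 ± 0.18). NR0B1, a repressor of steroid-making genes, had a value of 2.07. It was called higher from La to Lb (1.68 ± 0.24), and its log2 fold change from Ha to Hb was -0.41 ± 0.23. For ADCY7 the value was 1.10 (adjusted p of 0.0479). Without Hb2 and Hb3 the values were 3.52, 2.26, 1.99, 2.82 and 1.91 for COL1A1, COL4A1, COL4A2, ACTA2 and NR0B1, each still called. That of ADCY7 was 1.21, with an adjusted p of 0.075. The cause of these differences was not tested.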

How the results depend on the processing

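Of 292 fold changes of the members recomputed under alternatives, 253 kept their direction and side of the thresholds, 19 turned in sign, 11 passed anew and 9 no longer passed. Of 120 recomputed ratios 108 kept both. From Ha to Hb, limma on log2 FPKM with 1 or 0.1 added gave INSL3 -3.41 and -3.43, and with 1 added RXFP1 -0.32. The values of limma are differences of mean log2 FPKM, a measure unlike that of edgeR. With 1 added, members called were 1 from La to Lb, 0 from Ha to La and 1 from Hb to Lb, with RXFP1 at -0.71 (La to Lb) and 0.43 (Ha to La), LHCGR at 2.23 (Hb to Lb) and RXFP2 at -0.0729 (La to Lb). RXFP2 from La to Lb was -0.25 with 0.1 added and -0.0472 with total counts. All 12 libraries in the same fit gave 0 members from Ha to La (RXFP1 1.48), 1 from Hb to Lb (LHCGR 1.89) and RXFP2 -0.0366 from Hb to Lb. The cause was not tested.

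With the replicate number as a replicate block, members called from Ha to La were 0, RXFP1 there was 1.42 and RXFP2 from La to Lb was -0.0219. Deviations of libraries from their group means were correlated between libraries of the same number, with values between -0.0223 and 0.0527. No pairing by number was seen, but so few libraries cannot exclude it, and the labels do not say.

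Leaving out Hb2 and Hb3, chosen after seeing the data, gave INSL3 0.49 (Ha to Hb), -0.13 (Hb to Lb) and -0.76 (interaction). It gave interactions of -0.0750 for LHCGR and 0.57 for RXFP1, and RXFP2 -0.81 from Hb to Lb. The ratio INSL3 over LHCGR became 1.41 by age and -0.76 by breed, and LHCGR over CYP17A1 became -0.10 and 0.20.

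Leaving out each library in turn, INSL3 ranged from -4.47 to -0.43 (Ha to Hb), -0.70 to 0.0919 (La to Lb), 0.80 to 4.77 (Hb to Lb) and 0.21 to 4.21 (interaction). LHCGR ranged from 0.82 to 1.13 (Ha to La), 1.48 to 2.96 (Hb to Lb) and 0.54 to 2.02 (interaction). RXFP1 ranged from 1.22 to 1.77 (Ha to La) and -1.48 to 0.48 (interaction). RXFP2 ranged from -0.51 to 0.45 (La to Lb), -0.62 to 0.73 (Hb to Lb) and -1.28 to 0.15 (interaction). Members called ranged from 0 to 2 from Ha to La, from Hb to Lb and for the interaction. INSL3 over CYP17A1 ranged from 1.39 to 1.81 by age and -1.06 to -0.64 by breed, INSL3 over LHCGR from -0.0769 to 0.63 by breed, and RXFP2 over RXFP1 from 2.60 to 3.78 by age and -1.09 to 0.0893 by breed.

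Genes called from Hb to Lb numbered 628, against 1176 in DESeq2, 154 with the replicate block and 97 to 1029 without a library. With all 12 libraries in the same fit, 856 genes were called higher there and 402 lower, against 432 and 196. DESeq2 gave no adjusted p for INSL3 from Ha to Hb. Depth limited RXFP1 most, with 0 to 11 counts at 120 days, and a count of 0 allows up to 3. Where a library alone made up a group, it was assumed to vary like the other groups.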

Other observations

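TSHR, the receptor for thyroid-stimulating hormone and a relative of LHCGR, had an FPKM of 0.04, 0.70 and 1.94 in Hb1, Hb2 and Hb3, the reverse of the order of INSL3 in these libraries. In Lb it had an FPKM of 0.60, 1.09 and 0.22, in the same order as INSL3. TSHR was near the limit of detection in Hb1, at 0.172 CPM, the level of 3 counts there. At 30 days it lay between 0 and 0.467 CPM. Its call from Ha to Hb (3.53 ± 1.14, adjusted p of 0.0261 in edgeR) was lost without Hb2 and Hb3, with a log2 fold change of -0.77. From La to Lb it was called higher as well (3.26 ± 0.88, adjusted p of 0.0101).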
